A study of Mus musculus with 5 samples.

Results

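The p200 (Ifi200) family was followed through 10 genes of mouse chromosome 1, Ifi203, Ifi204, Ifi207, Ifi208, Ifi209, Ifi211, Ifi213, Ifi214, Mndal and Aim2, out of the 27726 genes common to the 5 count matrices. They were taken as a named family in which several members had been higher in both weeks of culture in an earlier reading of these counts, so the change with culture is given below as a description and without a test. RNA of single cells was counted with the 10x Genomics 3′ assay in type 2 innate lymphoid cells (ILC2s), the lung-resident lymphocytes that make type 2 cytokines without an antigen receptor. All libraries came from lungs of WT C57BL/6 mice, which were female and 4 to 8 weeks old, and each pooled the cells of 5 mice, so the mice of a library cannot be separated. The naïve group was 1 library of cells from mice without tumour, sequenced without culture. The ta-non-activated group was 2 libraries of uncultured cells from tumour-carrying mice, taken 2 and 3 weeks after TC1 cells, a mouse lung tumour line, had been placed under the skin of the flank. The ta-activated group was 2 libraries of cells from tumour-carrying mice at the same weeks that were then kept in culture for a week with IL-2, IL-33 and TSLP. No library held cultured cells without these cytokines or cultured cells of mice without tumour, so the parts of culture, cytokines and tumour in a ta-activated level cannot be told apart.

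Proteins of the p200 family carry HIN domains, which bind double-stranded DNA, pyrin domains, through which they meet other proteins, or both. Which of these domains each listed member has was not looked up here. Aim2 forms a caspase-1-activating inflammasome on DNA in the cytosol, and Ifi204 (p204), a mouse relative of human IFI16, has been linked to DNA sensing through STING. Much of the family was first described as induced by interferons, which act in part at interferon-stimulated response elements (ISREs) near the start of a gene.

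In GENCODE M21 (GRCm38) the 10 genes lay within chr1:173350879-173942672. This interval held 19 annotated genes, of which 12 were protein coding. Apart from the members, it held in the matrices only Cadm3, an adhesion molecule gene at 0 to 0.0647 CPM (counts of a gene per 1000000 counts of its library), and Ifi206, a p200 gene outside the list that is described beside it. The model of Mndal spanned Ifi211 and overlapped Ifi203 in 0.552% of the exon bases of Ifi203. The RefSeq promoter table (GRCm38.p6) gave 300-base windows, from 250 bases before the start to 50 after it, for 9 of the 10 members, and Ifi204 had no entry. Both strands were searched for the ISRE core, taken as the half-site GAAA followed on the same strand by another GAAA after any 2 bases, and for TTCNNNGAA, the interferon-γ-activated site (GAS). The ISRE core was found in 7 of these members and GAS in 0, against 3.99% and 9.55% of the 27025 genes in the table, so the motifs did not overlap in these members. In 6 members the core was spelled GAAATCGAAA, which stood in the windows of 16 genes in the whole table, 7 of them p200 genes (Ifi206 is the seventh). This spelling was picked after the windows had been read. Ifi203 and Mndal had the same bases around the core, as did Ifi208 and Ifi213. The members of this family are therefore not independent finds of a motif. The percentages of all genes are given as a description, and nothing is read from the members' counts against them.

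The cores are shown because they lay close together in the 7 members, 35 to 79 bases before the start and on the coding strand. Each line gives 30 bases of a member, read 5′ to 3′ along the gene on GRCm38.p6, with the core in capitals.
Ifi203, chr1:173942508-173942537, minus strand: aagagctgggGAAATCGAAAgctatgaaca
Mndal, chr1:173880204-173880233, minus strand: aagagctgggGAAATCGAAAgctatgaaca
Ifi207, chr1:173741831-173741860, minus strand: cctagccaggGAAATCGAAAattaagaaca
Ifi208, chr1:173673597-173673626, plus strand: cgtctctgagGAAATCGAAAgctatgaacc
Ifi213, chr1:173599326-173599355, minus strand: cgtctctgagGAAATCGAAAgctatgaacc
Ifi214, chr1:173536017-173536046, minus strand: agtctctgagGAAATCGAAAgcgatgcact
Ifi211, chr1:173913064-173913093, minus strand: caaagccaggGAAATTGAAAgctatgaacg
Ifi203 and Mndal had the same 30 bases, as did Ifi208 and Ifi213, and Ifi211 alone had GAAATTGAAA. A second RefSeq start of Mndal also had a core on the other strand (TTTCTCTTTC), 54 bases before it. The window of a second RefSeq start of Ifi203 held 0 cores and 0 matches with 1 mismatch. Ifi209 and Aim2 had no core, and their nearest matches differed by 1 base from it. Ifi209 had 4 such matches, of which 1 is shown. It has the substitution G1T, counted from 1 at the 5′ end of the first half-site, and began 79 bases before the start. In Aim2 the match lay on the other strand, 51 bases before the start, with the substitution A3C. A match with at most 1 mismatch was in 35.4% of all windows.
Ifi209, chr1:173630770-173630799, plus strand: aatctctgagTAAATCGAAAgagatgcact
Aim2, chr1:173420543-173420572, plus strand: tgtaactctgTTTCTTTGTCtgagcaagaa
The whole windows of Ifi203, the member with the highest level after culture, and of Aim2, which stayed apart from the others in the values below, follow for comparison.
Ifi203, chr1:173942443-173942742, minus strand: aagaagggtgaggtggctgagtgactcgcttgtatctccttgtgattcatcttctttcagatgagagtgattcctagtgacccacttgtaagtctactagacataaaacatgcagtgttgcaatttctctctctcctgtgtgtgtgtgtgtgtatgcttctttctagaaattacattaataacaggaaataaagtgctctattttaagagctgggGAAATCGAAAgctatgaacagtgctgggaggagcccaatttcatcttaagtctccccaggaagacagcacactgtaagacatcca
Aim2, chr1:173420354-173420653, plus strand: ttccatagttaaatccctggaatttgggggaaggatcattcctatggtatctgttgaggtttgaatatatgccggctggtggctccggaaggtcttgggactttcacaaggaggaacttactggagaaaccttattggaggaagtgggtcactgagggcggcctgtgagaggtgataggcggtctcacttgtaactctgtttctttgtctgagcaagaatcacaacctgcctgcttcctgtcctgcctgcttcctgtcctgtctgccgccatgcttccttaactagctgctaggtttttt
A match describes letters in a window and is not a measured site of binding.

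The libraries differed in depth and in the cells they held. After barcodes with under 200 genes or at least 5% mitochondrial counts had been removed, they held 1601 to 6389 cells with medians of 4396 to 16090 UMIs (unique molecular identifiers, counted molecules), and 9394957 to 61830293 UMIs in all. Any pair of libraries shared 1 to 8 cell barcodes. The week 3 ta-non-activated library stood apart from its label. In it 33.3% of cells had more UMIs over 12 ILC2 genes than over 15 T cell and thymocyte genes, a rule called the ILC2 gate here, against 90.3% in the naïve library and 94.8% to 98.7% in the other 3. Its T cell and thymocyte genes summed to 7899 CPM, against 293 to 1269 CPM in the other 4 libraries, and it was the shallowest. Results that rest on it are given for all kept cells, and the main ones also for the 533 cells inside the gate. In this library 217 of the 1601 cells lay within 2 UMIs of the gate's line, 41 of them tied and so placed outside. For those cells the side rests on few counts. Its gated cells had a median of 2931 UMIs. Myeloid genes, which mark cells in which the family is well known, summed to 1.29 to 19.8 CPM over the 5 libraries, with 2.93 and 3.22 CPM in the ta-activated ones.

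For each gene, its UMIs were divided by the total of the kept cells in that library and given as CPM, with exact Poisson 95% intervals that cover counting error only. A UMI stands for 1 transcript whatever its length, so levels of different genes can be set side by side. Shared 3′ ends, given at the end of these results, limit this for some members. Genes with long introns, as in Aim2 and Mndal, were relatively higher in the naïve library, as given below. This may limit such comparisons in naïve cells and was not tested. Ifi203 and Mndal were the most abundant members in each of the 5 libraries, followed over all cells by Aim2 in the 3 fresh libraries and by Ifi209 in the 2 cultured ones. Inside the gate Aim2 and Ifi209 of week 3 fresh cells, at 24.3 (17.4 to 33.1) and 28.6 (21 to 38) CPM, stood in the other order but within counting error. Ifi203 was at 111 CPM in naïve cells, at 66.8 and 111 CPM in ta-non-activated cells of weeks 2 and 3, and at 341 and 602 CPM in ta-activated cells of the same weeks. Both cultured libraries lay above the 3 fresh ones, 5.11-fold above the fresh library in week 2 and 5.44-fold in week 3. Mndal, named for its likeness to the myeloid nuclear differentiation antigen, was at 161 CPM in naïve, 48.4 and 149 CPM in ta-non-activated and 273 and 475 CPM in ta-activated cells. The groups did not overlap, and the ratio was 5.63 in week 2 and 3.2 in week 3. Ifi209 was at 30.2 CPM in naïve cells, 8.43 and 15.3 CPM in ta-non-activated cells and 121 and 166 CPM in ta-activated cells. Its cultured libraries lay 14.3-fold and 10.8-fold above the fresh ones, the widest gap among these 3 abundant members.

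A second set of members was sparse in fresh cells and plain after culture. For Ifi204, the p204 DNA sensor, 5 UMIs were counted in naïve cells, 14 and 1 in ta-non-activated cells of weeks 2 and 3, and 2089 and 3009 after culture. These were levels of 0.154, 0.421 and 0.106 CPM against 36.4 and 48.7 CPM. The ratio was 86.5 (95% counting interval 51.4 to 158) in week 2, and 457 (82 to 18100) in week 3, where it rests on a single fresh UMI. Ifi204 was thus close to absent from fresh cells at this depth and, after culture, at a level near that of Ifi213 in week 2 and below it in week 3. Ifi214 went from 0.211 and 0.426 CPM to 11.4 and 19.2 CPM, ratios of 54.1 (26.1 to 135) and 45 (17.5 to 165). Ifi211 went from 0.692 and 0.319 CPM to 9.83 and 16.8 CPM, ratios of 14.2 (9.37 to 22.6) and 52.6 (18 to 256, on 3 fresh UMIs). The intervals of both weeks overlapped for each of these 3 genes. Ifi207 was the least abundant member. Naïve cells held 7 of its UMIs and the tumour-associated fresh cells of either week 0, and it reached 3.02 and 5.27 CPM after culture. Set against 3 counts in the fresh library, it was 33.4-fold higher in week 2 and 16.5-fold higher in week 3. The upper 95% limits of the fresh 0 counts, 0.111 and 0.393 CPM, lay above the level of 3 counts, 0.0903 and 0.319 CPM. These folds are therefore not strict lower bounds.

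In Ifi208 and Ifi213 the fresh libraries of the 2 weeks differed from each other beyond counting error. The same held for Ifi203, Ifi209 and Mndal, as with 46.05 to 50.8 and 141 to 157 CPM for Mndal in weeks 2 and 3. Ifi213 was at 5.4 CPM in naïve cells and at 0.301 (0.144 to 0.553) and 5.22 (3.86 to 6.9) CPM in ta-non-activated cells of weeks 2 and 3. After culture it was at 35.1 and 65.8 CPM, so that its ratio was 116 in week 2 and 12.6 in week 3. Ifi208 was at 13.8 CPM in naïve, 0.903 and 7.13 CPM in ta-non-activated and 32.1 and 56.7 CPM in ta-activated cells, with ratios of 35.6 and 7.95. The ratios of week 2 were the larger ones although the cultured levels were lower in week 2, because the fresh levels of week 2 were lower still. Ifi206, the p200 gene outside the list, followed the same course, at 14.8 CPM in naïve, 1.38 and 10.5 CPM in ta-non-activated and 66.9 and 108 CPM in ta-activated cells.

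Aim2, the inflammasome receptor, was the exception. It was at 82.2 CPM in naïve cells, its highest level, at 23.5 and 20.4 CPM in ta-non-activated cells and at 28.4 and 35.2 CPM in ta-activated cells. Both cultured libraries were above both ta-non-activated ones, but only 1.21-fold in week 2 and 1.72-fold in week 3, and both were below the naïve library. The Poisson intervals of the ta-non-activated and ta-activated libraries did not meet (21.8 to 25.2 against 27 to 29.8 CPM in week 2), but counting error leaves out the spread between mice and libraries.

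**Figure D1:**
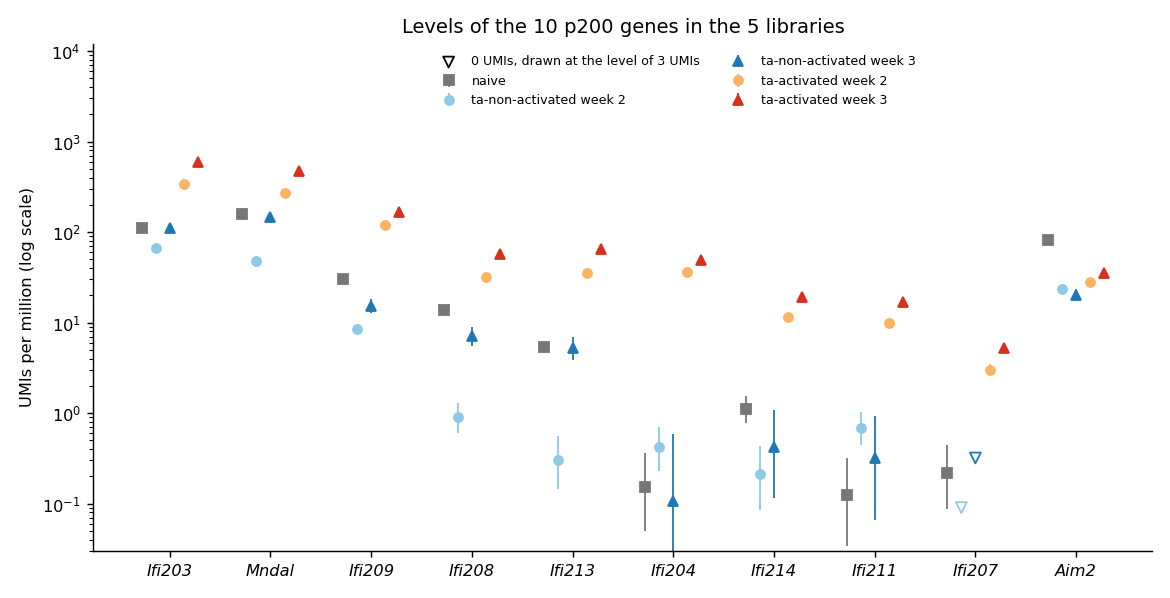
Level of each member in each library, in CPM on a log scale, with exact Poisson 95% intervals as bars, where not hidden by the point. The ta-activated points lie above all fresh points for 9 genes, and for Aim2 the naïve point is the highest, at 82.2 CPM.

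By the rule used here, a log2 ratio of (CPM + 1) of at least 1 in both weeks, 9 of the 10 members were at least 2-fold higher after culture, all except Aim2, whose log2 ratios were 0.26 and 0.76. The same was true of 7.60% of the 8433 genes with at least 10 CPM in a tumour-associated library, and nothing is read from the members' count, since the family was picked from this contrast. The ta-activated libraries did not overlap the ta-non-activated ones in 10 of 10 members (background 30.1%). Nearest to the 2-fold line, on the far side from Aim2, was Mndal, at 2.47 and 1.67. The median log2 ratio of the members was 3.02 in week 2 and 3.09 in week 3, beside 0.09 and 0.02 for all genes. Of these 10, 9 had 10 CPM in at least 1 of the 4 libraries and 5 in at least 1 of the 3 fresh libraries. Ifi204, Ifi207, Ifi211, Ifi213 and Ifi214 would have failed such a limit without the cultured libraries. The ratio of (CPM + 1) understates the change of low members, and with 0.1 CPM added in place of 1 the week-averaged log2 ratio of Ifi204 was 7.01 in place of 5.1 and that of Ifi207 was 5.35 in place of 2.33.

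Inside the ILC2 gate 9 of 10 members again passed the 2-fold rule in both weeks (background 7.67%), but 7 of the 10 log2 ratios of week 3 were smaller than over all cells. Ifi203 there was at 184 (163.5 to 206) CPM in fresh cells, against 95.4 CPM in the cells outside the gate, and its log2 ratio was 1.71 in place of 2.43. Ifi208 was at 21.9 CPM inside and 4 CPM outside, and its log2 ratio was 1.33 in place of 2.83. For Mndal it was 1.2 in place of 1.67 and for Ifi209 2.49 in place of 3.35. Aim2, at 24.3 CPM inside and 19.6 CPM outside, gave 0.51 in place of 0.76. The 3 others, Ifi204 (5.63 in place of 5.49), Ifi207 (2.66 in place of 2.65) and Ifi211 (4.14 in place of 3.75), had 0 UMIs in the gated fresh cells. In those cells 3 counts were 1.82 CPM, and the upper limit of 0 counts was 2.24 CPM. The size of these 3 ratios therefore depends on the 1 CPM added. For Ifi207, at 5.3 CPM inside the gate after culture in week 3, passing the 2-fold rule is not sure. The 10 members summed gave 308 CPM in all fresh cells of week 3, 472.5 CPM inside the gate and 273.5 CPM outside it. After culture the sum was 891 CPM in week 2 and 1491 CPM in week 3. The fold over fresh cells was 5.96 in week 2 and 4.84 in week 3, or 6.04 and 3.16 inside the gate. All 10 members were higher in the week 3 than in the week 2 ta-activated library, with the sum 1491 against 891 CPM, a comparison of 1 library with 1 in which 58.2% of all genes were higher in week 3.

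edgeR's quasi-likelihood test of 2 ta-activated against 2 ta-non-activated libraries called 0 of 12643 genes (0.00%) at an adjusted p of 0.05, with 2120 at an unadjusted p under 0.05, while DESeq2 called 1054 of 18230 (5.78%). As a description without a p, edgeR's fitted log2 changes were 2.33 ± 0.44 (SE) for Ifi203, 1.88 ± 0.6 for Mndal, 3.52 ± 0.42 for Ifi209, 6.92 ± 0.73 for Ifi204 and 0.41 ± 0.35 for Aim2. They were 4.46 ± 0.66 for Ifi211 and 5.59 ± 0.58 for Ifi214. The SEs were largest for Ifi213 (4.28 ± 1.3), Ifi207 (10.3 ± 1.23) and Ifi208 (3.51 ± 0.99). The SE was worked out from the F statistic of the same contrast, as the size of the change over the square root of F. The mean level with its SD (n = 2 libraries a group) was 88.8 ± 31.1 CPM before and 472 ± 184 CPM after culture for Ifi203, and 22 ± 2.15 and 31.8 ± 4.81 CPM for Aim2.

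**Figure D2:**
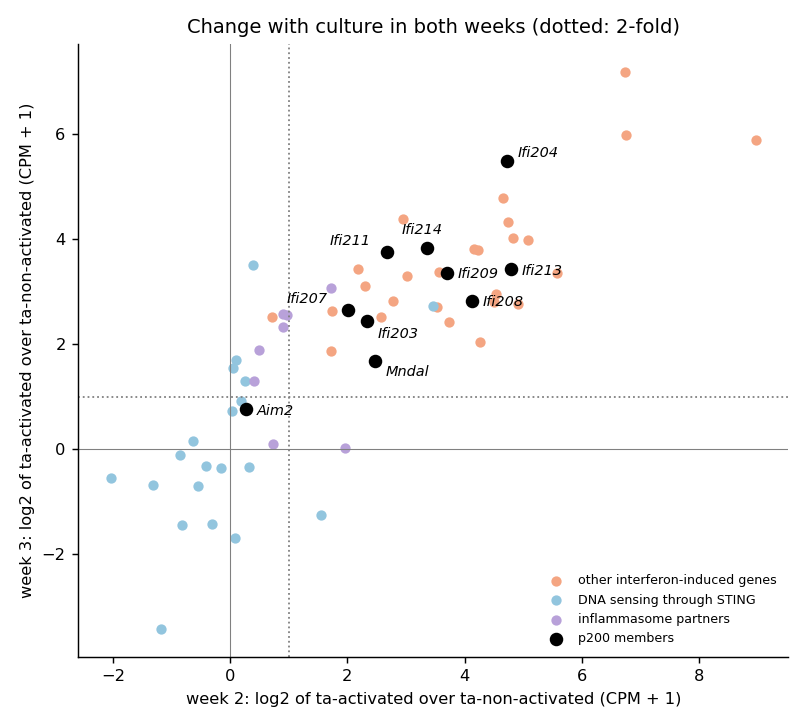
Log2 ratio of (CPM + 1), ta-activated over ta-non-activated, in week 2 on the horizontal and week 3 on the vertical axis, for the p200 members (black, named) and genes of 3 other lists with at least 10 CPM in a tumour-associated library (Zbp1, on 2 lists, is drawn with the interferon-induced genes). Dotted lines mark 2-fold, with 9 members beyond both of them and Aim2 at 0.26 and 0.76, among the STING genes.

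Naïve and fresh tumour-associated cells were compared to see how the family stood before culture. Both comparisons share the naïve library and none was tested, since there is 1 naïve library. In week 2, 5 of 10 members were at least 2-fold lower than in naïve cells, Ifi208, Ifi209, Ifi213, Mndal and Aim2 (background 33.5%), and the same 5 were inside the gate (background 34.0%). In week 3 it was 1 of 10, Aim2 (background 28.4%), and inside the gate also only Aim2 (background 26.0%). In neither week was a member at least 2-fold higher by this rule (backgrounds 21.0% and 19.1%), which adds 1 CPM to both levels. These backgrounds cover only genes with at least 10 CPM in a fresh library, while the counts cover all 10 members. The limit was met by 5 members, Ifi203, Ifi208, Ifi209, Mndal and Aim2, all but Ifi203 lower in week 2, and was not met by Ifi213. The folds that follow are plain ratios of CPM. Ifi213 was 17.95-fold lower in week 2 than in naïve cells, Ifi208 15.25-fold, Ifi209 3.58-fold, Ifi214 5.275-fold (on 36 and 7 UMIs), Aim2 3.5-fold and Mndal 3.32-fold. Ifi211 was 5.61-fold higher in week 2 than in naïve cells, on 23 and 4 UMIs, with intervals apart (0.439 to 1.04 and 0.0336 to 0.316 CPM), and Ifi204 was 2.73-fold higher, on 14 and 5 UMIs, with intervals that overlapped. Ifi203, at 1.66-fold, was the only abundant member under 2-fold. In week 3 Aim2 was 4.02-fold lower than in naïve cells (3.48-fold inside the gate), and Ifi203 and Ifi213 were at ratios of 1 and 1.04. Inside the gate Ifi203 was instead higher than in naïve cells, by 0.79 on the log2 scale. So the order of the summed level among fresh cells was naïve (405 CPM), week 3 (308 CPM) and week 2 (150 CPM) over all cells, but week 3 (472.5 CPM), naïve (399 CPM) and week 2 (147 CPM) inside the gate.

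Technical differences ran beside the naïve comparison. The naïve matrix was made with a later version of Cell Ranger than the other 4. It listed 28831 genes, against 27726 in each of the others, so its gene annotation may have differed too. Genes with long introns were relatively higher in it. Over 6592 genes, which are not independent replicates, the Spearman correlation of intron length with the log2 ratio of naïve over fresh cells was 0.585 in week 2 and, over 6725 genes, 0.597 in week 3. Aim2 has 111661 intron bases in GENCODE M21 and Mndal 89738, the longest of the 10 members. The other 8 have 8134 to 26152, beside a median of 18156 over genes with at least 10 CPM. The GENCODE models of Aim2 and Mndal begin at 173350879 and 173942491. Both lie far upstream of RefSeq windows of these genes (173420354-173420653 and 173880138-173880437). Introns counted from those RefSeq starts would be shorter, and were not measured. The part of these technical differences in the naïve levels of the members, Aim2 and Mndal among them, was not tested. The ratios of ta-activated over ta-non-activated cells compare matrices of the same version.

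The make-up of the family's transcripts also differed between groups. Ifi203 and Mndal together held 67.1% to 84.1% of the UMIs of the 10 genes in each of the 5 libraries. Aim2 held 20.3% (Wilson 95% interval 19.6 to 21) in naïve cells, 15.7% and 6.63% in ta-non-activated cells and 3.19% and 2.36% in ta-activated cells. Ifi209 held 7.46% in naïve cells, 5.63% and 4.97% in ta-non-activated cells and 13.6% and 11.1% in ta-activated cells. Ifi204 held at most 0.282% in a fresh library and 4.09% and 3.26% after culture. The shares of Ifi203 (38.3% and 40.4% after culture) lay inside the range of the fresh libraries (27.4% to 44.6%), and those of Mndal (30.6% and 31.9%) lay just below theirs (32.35% to 48.2%). Inside the gate the week 3 fresh cells gave 5.15% for Aim2, 6.05% for Ifi209, 38.9% for Ifi203 and 43.8% for Mndal.

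**Figure D3:**
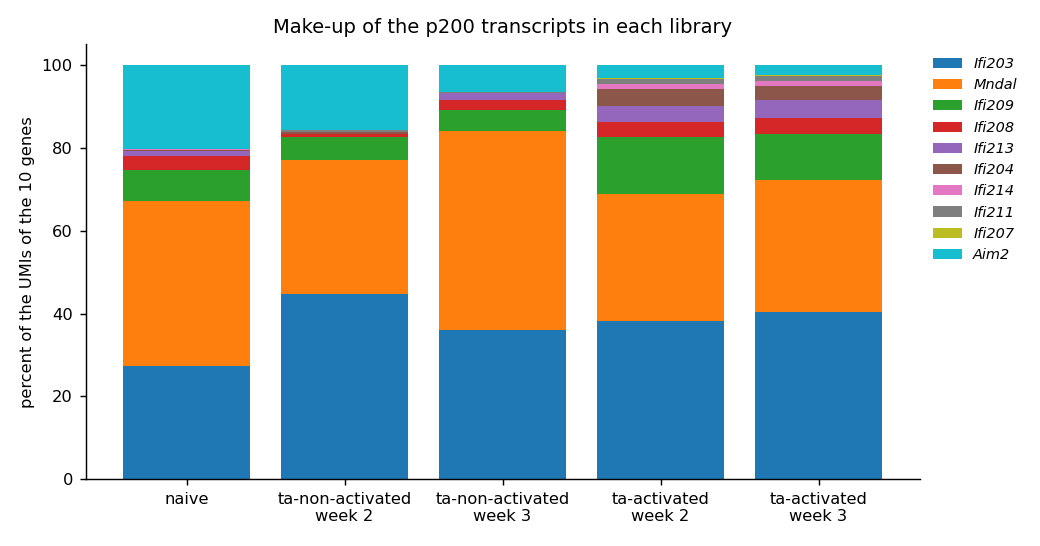
Percent of the UMIs of the 10 members that each gene held in each library, as stacked bars that add to the whole family. Aim2 takes 20.3% in naïve and 2.36% in week 3 ta-activated cells, while Ifi203 and Mndal together take 67.1% to 84.1% throughout.

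To compare cells at 1 depth, cells with at least 2000 UMIs were thinned at random to 2000 UMIs, which left out 14 to 242 cells a library. A UMI of any member was then found in 52% of naïve cells, 24.9% and 49.6% of ta-non-activated cells and 76.7% and 91.1% of ta-activated cells. Without thinning the shares were 75.8%, 73.3% and 74.8%, then 95.9% and 98.8%. Ifi203 was found in 18.9% of naïve, 13.4% and 22.6% of ta-non-activated and 52.3% and 68.8% of ta-activated cells. Without thinning these were 36%, 45%, 42.3%, 84.7% and 96%. Ifi204 was found in 7.41% (Clopper-Pearson 95% interval 6.47 to 8.44) and 7.86% (7.02 to 8.78) of ta-activated cells, and in 26.4% and 29.3% without thinning. Among fresh cells it was found in 1 of 6147 naïve, 3 of 1809 week 2 and 0 of 1495 week 3 cells, the last of which allows a share of cells with a UMI at this depth of up to 0.201% (3 cells). Without thinning 1 of 1601 week 3 cells had one. Aim2 was found in 14.45% of naïve, 4.04% and 4.21% of ta-non-activated and 4.18% and 6% of ta-activated cells. For Aim2 the intervals of the week 2 libraries overlapped (3.18 to 5.05% and 3.47 to 4.99%), and so did those of week 3 (3.25 to 5.36% and 5.26 to 6.82%). Inside the gate the shares in week 3 fresh cells were 59.1% for any member, 30.6% for Ifi203 and 5.03% for Aim2, and 0 of 477 cells held a UMI of Ifi204. No cell type known to lack these genes was available to set a background of free RNA. The fresh libraries, where Ifi204 and Ifi207 were near 0, cannot set one for the ta-activated cells, since they are separate libraries.

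Within the ta-activated libraries the members differed in how evenly cells carried them. In cells thinned to 5000 UMIs (2689 in week 2 and 3536 in week 3) Aim2 was spread almost as independent counting at its mean would give. It was found in 11.8% and 14.1% of cells, where a Poisson count gives 12% and 14.3%, and its variance over its mean was 1.04 and 1.03. Ifi203 had the largest variance over its mean in week 2, at 3, and was found in 70.7% of cells where a Poisson count gives 91.4%. In week 3 its ratio was 1.93, with 91% of cells. Mndal had ratios of 2.3 and 1.73. Ifi204, though much sparser than Ifi203, had ratios of 1.78 and 1.75, and a single cell held up to 7 of its UMIs in week 2 and up to 6 in week 3. Ifi208 and Ifi213, both somewhat more abundant than Ifi204, had ratios of 1.26 to 1.33. The sparser Ifi207, Ifi211 and Ifi214 had ratios of 1.31 to 1.58. For the same relative spread over cells this ratio rises with the mean, so it does not rank members of differing abundance by evenness. These values describe cells of 1 library each and are not replicated over mice.

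Cells were next sorted by 12 interferon score genes that hold no p200 member (among them Ifit1, Isg15, Irf7 and Rsad2), at 2000 UMIs a cell, into those with a UMI of 0, of 1 or 2, and of 3 or more of them. These are ranges of a score and not cell types. In week 2 ta-activated cells the summed members were at 204 (157 to 260) CPM in the 157 cells with 0 score genes, at 551 (513 to 591) CPM in the 698 with 1 or 2 and at 1640 (1600 to 1680) CPM in the 1967 with 3 or more. Without thinning only 23 cells of this library had 0 score genes. Most of the 157 thus held a score UMI at full depth, and are low in score rather than without it. All cells of the fresh week 2 library were at 150 CPM. In the lowest group Ifi204 was at 15.9 (5.17 to 37.2) CPM and Ifi209 at 41.4 (22 to 70.8) CPM, against 0.421 and 8.43 CPM in the fresh library, while Ifi203 was at 47.8 (26.7 to 78.8) CPM and Ifi208, Ifi213 and Ifi214 had 0 UMIs. In week 3 only 12 ta-activated cells had 0 score genes, with a sum of 1125 (741 to 1637) CPM on 27 UMIs. The sum was 871 (807 to 939) CPM in the 391 with 1 or 2 and 1800 (1768 to 1833) CPM in the 3311 with 3 or more. Before thinning the groups differed in depth, with medians of 35978, 21890 and 11774 UMIs in week 2 and 18820.5, 19379 and 12131 UMIs in week 3, and the part of depth or cell state in these differences was not tested.

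The same members differed between the upper score groups beyond counting error in both weeks. Between cells with 1 or 2 and with 3 or more score genes, the intervals lay apart for 7 of 10 members in week 2 and for the same 7 in week 3: Ifi203, Ifi204, Ifi208, Ifi209, Ifi213, Ifi214 and Mndal. All 7 were higher with 3 or more, as were 6.11% of all genes in week 2 and 5.48% in week 3 with their intervals apart. Ifi203 was at 199 and 668 CPM in these groups in week 2 and at 372 and 741.5 CPM in week 3. Ifi208 had the largest ratio in week 2, at 11.5 and 73.2 CPM, and Ifi209 was at 60.1 and 214 CPM in week 3. Ifi204 was at 24.4 and 53.1 CPM in week 2 and at 23 and 46.8 CPM in week 3. The other 3 were Aim2, Ifi211 and Ifi207. Whether intervals lie apart depends on abundance as well as on the ratio. In week 3 the abundant Mndal, with intervals apart, had a ratio of 1.76, and the sparser Aim2, with intervals that overlapped, one of 1.55. Aim2 was at 19.1, 21.5 and 22.6 CPM over the 3 groups of week 2, within counting error of each other, and at 20.5 and 31.7 CPM in the upper groups of week 3. Ifi211 was at 10.7 and 8.13 CPM in week 2 and at 10.2 and 12.2 CPM in week 3, so it was higher after culture in both weeks but showed no difference between these cells at this depth. Ifi207 had 1 or 2 UMIs in the middle groups, too few to compare. Across the cells at 5000 UMIs the Pearson correlation with the summed score genes (log2(UMIs + 1)) was 0.555 and 0.383 for Ifi203, 0.494 and 0.324 for Mndal, 0.147 and 0.211 for Ifi204, -0.00445 and 0.0461 for Ifi211, and -0.00975 and -0.0065 for Aim2. Sparse counts lower such values, yet Ifi214, with 256 and 381 UMIs against 344 and 547 for Aim2, was at 0.167 and 0.141.

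**Figure D4:**
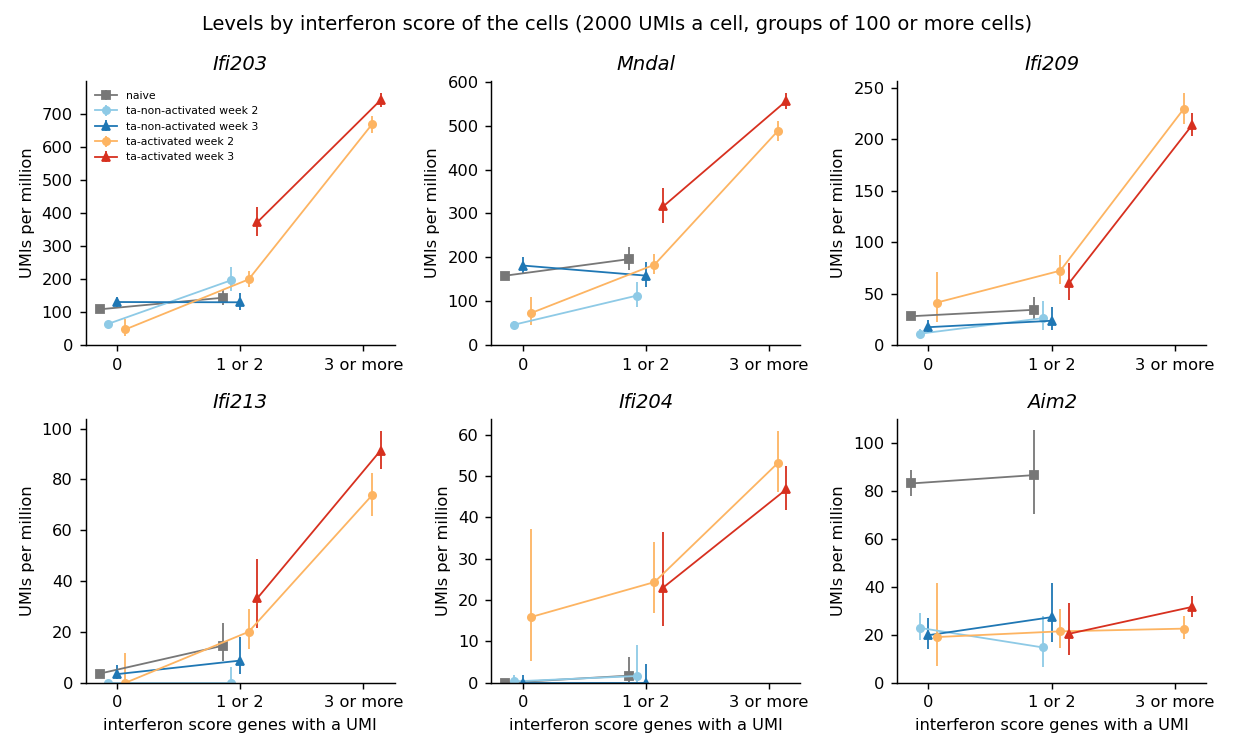
Level of 6 members (CPM, exact Poisson 95% intervals) in cells with a UMI of 0, of 1 or 2 and of 3 or more interferon score genes, at 2000 UMIs a cell, for groups of at least 100 cells. Lines of the ta-activated libraries climb for 5 genes, as from 199 to 668 CPM for Ifi203 in week 2. Aim2 lies at 19.1, 21.5 and 22.6 CPM in week 2 ta-activated cells. In week 3 it goes from 20.5 to 31.7 CPM, with intervals that overlap.

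Few fresh cells had a high score. The sum was 1682 (1184 to 2318) CPM in the 11 naïve cells with 3 or more score genes, against 396 CPM in the 5554 with 0. It was 1214 (904 to 1597) CPM in 21 cells against 147 CPM in 1483 in week 2 ta-non-activated cells, and 794 (646 to 965) CPM in 63 cells against 365 CPM in 1031 in week 3. Inside the gate only 1 week 3 fresh cell had 3 or more score genes, so that this difference rests on cells outside it. The log2 ratios of naïve and week 2 fresh cells, 2.08 and 3.03, were 1.08 and 2.01 without thinning and 0.99 and 2.12 with other interferon-induced genes as the score. Over all cells Ifi203 was higher with its interval apart in 5 of 5 libraries between 3 or more and 0 score genes, Mndal in 4 and Ifi213 in 3. Aim2 was so in 0, but it had only 3, 0 and 2 UMIs in the high-score cells of naïve, week 2 and week 3 fresh libraries. In week 3 ta-activated cells with 0 score genes it had 2 UMIs, so these libraries could hardly show a difference for it. The share over all genes was not counted for this comparison, so nothing is read from these counts. For Ifi213 the call in naïve cells rests on 2 UMIs in the high-score cells, and that in week 3 fresh cells on 6. In naïve cells Aim2 was at 83.3 CPM with 0 and at 86.8 CPM with 1 or 2 score genes.

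Cells were also divided by 12 cell-cycle genes, a grouping made after the data had been seen. In ta-activated cells thinned to 2000 UMIs that had at least 2 of these genes the summed members were at 977 (928 to 1027) CPM in week 2 and 1356 (1297 to 1416) CPM in week 3, against 1409 (1373 to 1446) and 1786 (1752 to 1820) CPM in the rest. The cycling cells had medians of 23707 and 20991 UMIs before thinning, against 11085 and 11511. Ifi203 was at 391 against 565 CPM in week 2 and at 522 against 746 CPM in week 3, while Aim2 was at 23.3 against 21.7 CPM and at 31.7 against 30.5 CPM. In fresh tumour-associated cells the sum was at 146 against 204 CPM in week 2 and at 236 against 416 CPM in week 3, where only 8 of the cells with at least 2 of these genes lay inside the gate. Naïve cells stood the other way, at 482 (361 to 630) CPM in 55 cells against 408 (396.5 to 419) CPM, with intervals that overlapped.

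Likeness to the summed members was measured over libraries and over cells. Over the 5 libraries, the genes outside the family that followed the summed members most closely in log2(CPM + 1) were Trim12c, Rnf114, Slfn8, Ms4a4b and Pml, with Pearson's r of 0.9986 to 0.9952 among 7413 genes, and Ifi206 was 11th at 0.992. Trim12c, a tripartite-motif gene, was at 26.15 CPM in naïve, 11.1 and 18.95 CPM in ta-non-activated and 51.5 and 76.5 CPM in ta-activated cells. Over 5 points that fall into fresh and cultured libraries, high values are common and carry no p. Over cells of the ta-activated libraries thinned to 5000 UMIs, the closest of 4580 genes were Ifit3, Ifit1, Isg15, Samhd1 and Iigp1, with a mean r of both weeks of 0.517, 0.511, 0.502, 0.484 and 0.443. The first 3 are type I interferon-induced genes, Samhd1 encodes a dNTP hydrolase and Iigp1 an immunity-related GTPase. All cells of a library share its preparation, so these too are descriptions.

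The pathways that p200 proteins are tied to were read in the same libraries, from lists chosen with earlier results of these data known. Of 26 interferon-induced genes, 25 were at least 2-fold higher after culture in both weeks and 0 lower (backgrounds 7.60% and 3.62%). It was also 25 inside the gate. edgeR called 0 of them, with 22 higher at an unadjusted p under 0.05, and DESeq2 called 24 higher. The largest week-averaged log2 ratio was that of Ifi27l2a (8.97 and 5.88) and the smallest that of Ifi35 (0.71 and 2.51). Among genes of interferon receptors and signalling, Stat2, a transcription factor of the type I pathway, was highest in ratio (3.17 and 3.06), and Ifngr1, a chain of the interferon-γ receptor, lowest (0.49 and -3.19, or 0.44 and -3.17 inside the gate). Interferon transcripts other than those of Ifng were almost absent. Of 20 interferon genes only Ifng reached 10 CPM, in week 3 fresh cells at 21.9 CPM (8.51 CPM inside the gate). It was at 7.87 CPM in naïve and 3.61 CPM in week 2 fresh cells, and at 9.43 and 0 CPM after culture. Ifnb1 had 0 UMIs in all 5 libraries, which allows up to 0.0485 CPM (3 counts) in the deepest of them.

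Of 21 genes of DNA sensing through STING with at least 10 CPM, 2 were at least 2-fold higher in both weeks, Samhd1 and Zbp1 (a sensor that is also on the interferon-induced list), and 1 was lower, Xrcc6, a subunit of the Ku DNA-end-binding complex, shares near those of all genes (7.60% and 3.62%). Inside the gate only Zbp1 passed, since Samhd1 (3.48 and 0.84) and Xrcc6 (-1.18 and -0.21) missed the fold in week 3. edgeR called 0 of 22 tested, with 2 higher and 5 lower at an unadjusted p under 0.05, and DESeq2 called 2 higher and 1 lower of 23. The list's median log2 ratios were 0.04 and -0.32, or 0.04 and 0.23 inside the gate. Zbp1 had the largest week-averaged ratio (2.95 and 4.38) and Xrcc6 the smallest (-1.17 and -3.42). Tmem173, which encodes STING, was at 26.2 CPM in naïve, 49.95 and 9.15 CPM in ta-non-activated and 66.1 and 114 CPM in ta-activated cells, with log2 ratios of 0.4 in week 2 and 3.51 in week 3 (3.2 inside the gate). Mb21d1, which encodes the DNA sensor cGAS, was at 11.8, 15, 6.71, 15.5 and 21.4 CPM in the same order. Of 8 inflammasome genes with at least 10 CPM, a list that also holds genes of other inflammasomes than that of Aim2, 1 passed the fold in both weeks, Casp4 (1.71 and 3.07), a caspase of the non-canonical inflammasome and the largest of the list. Inside the gate Casp4 was at 1.75 and 0.94, and 0 of 9 passed. edgeR called 0 of 12 tested, with 3 higher at an unadjusted p under 0.05, and DESeq2 called 1 of 16. Pycard, which encodes the adaptor ASC that Aim2 binds, had the smallest (0.73 and 0.1, or 0.74 and 1.47 inside the gate), and Casp1 was at 52.6 and 14.8 CPM in fresh and 104 and 91.8 CPM in cultured tumour-associated cells. Il1b, a substrate of caspase-1, had 0 UMIs in both ta-activated libraries.

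How far reads of the family can be told apart limits the values of some members. Of the stretches of 60 bases in the last 500 bases of their GENCODE transcripts, where a 3′ assay reads, 72.3% of those of Ifi211 were also in Ifi205, a p200 gene outside the list with at most 15 UMIs in a library, and 16.1% were in Mndal, the far more abundant member. The share was 44.8% for Ifi209, all with Ifi214, and 25.1% for Ifi214. It was 20.3% for Mndal, of which part lay in Ifi211, Ifi205 and Ifi204, 17.6% for Ifi208, 15.9% for Ifi213, 5.51% for Ifi203 and 1.15% for Ifi207. It was 0 for Ifi204 and Aim2, although 6% of the stretches of Mndal and 1.1% of those of Ifi207 were found in Ifi204. Only Aim2 shared none in either direction with the other members. The part of shared reads in these values was not tested.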

How the data were processed

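The 5 single-cell RNA libraries of mouse lung ILC2s were 1 naïve, 2 ta-non-activated and 2 ta-activated, by the treatment that the labels give. As deposited, the matrices hold whole UMI counts that the authors made with Cell Ranger on GRCm38 per the submitters' processing notes. The matrix headers name version 6.0.0 for the naïve library and 3.0.2 for the other 4. The naïve matrix listed 28831 genes and each of the other 4 listed 27726. The annotation used for counting is not given in the sources used here.

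Kept barcodes had 200 or more genes and a mitochondrial share under 5%, over the 27726 genes common to the matrices. Doublets were not called or removed, and leaving out the 6% of cells with the most UMIs was an alternative. Counts were summed per library and given as CPM. Log2 ratios used (CPM + 1). Levels have exact Poisson 95% intervals, shares of UMIs Wilson intervals and shares of cells Clopper-Pearson intervals, all of which cover counting error only. The floor is 3 counts. Depth was 9394957 to 61830293 kept UMIs a library, where 3 counts are 0.319 to 0.0485 CPM.

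The replicated comparison, 2 ta-activated against 2 ta-non-activated libraries, used edgeR 4.0.16 on summed counts (filterByExpr, TMM, quasi-likelihood F test, Benjamini-Hochberg adjusted p, threshold 0.05), with DESeq2 1.42.0 as an alternative, in R 4.3.3, and the script was checked on simulated counts in which 200 genes were changed. Libraries are pools of 5 mice, and the 2 of a group were taken at different weeks. The p-values therefore measure the spread between pools together with that between weeks. For ta-non-activated cells this spread also holds the differing cell make-up of the 2 libraries. The main fit did not pair the libraries by week (correlation of same-week deviations -0.062). That correlation cannot show whether a week effect was shared, since the 2 ta-non-activated libraries also differed in cell make-up. The naïve group entered no test.

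The members and all gene lists were chosen with earlier results of these data known, so members have no p. Named genes are the 10 members, the p200 gene Ifi206 and other neighbours on chromosome 1, the 5 genes most like the summed members over libraries (at least 20 CPM) and over cells (a UMI in at least 10% of them), and, per list, those past the fold and with the largest and smallest week-averaged ratio. The count for the list of interferon receptors and signalling is not reported here. Ifnb1, Tmem173, Mb21d1, Casp1 and Il1b were named as well for their roles in the pathways, after their values had been seen. Positions come from GENCODE M21, in which 27639 of the 27726 identifiers were found, and promoters from RefSeq. Other steps used numpy 2.4.6, pandas 2.3.3 and scipy 1.17.1 under Python 3.11.15, and figures matplotlib 3.10.9. Alternatives were other filters on cells, the ILC2 gate, means over cells, other scalings, 0.1 CPM added, a 1.5-fold limit, and each library, week or member left out. Values inside the gate for cells, make-up and lists were added after the data had been seen.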

Additional observations from a re-analysis of the deposited data

How the results depend on the processing

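The count of members at least 2-fold higher after culture in both weeks was 9 under the other cell filters, the ILC2 gate, means over cells, both other scalings, 0.1 CPM added and a 1.5-fold limit, and 9 in each week alone. The summed log2 ratio, 2.57 in week 2 and 2.27 in week 3, moved beyond the SD of the weeks to 1.66 in week 3 inside the ILC2 gate, to 2.34 in week 2 with DESeq2 size factors and to 2.66 in week 3 without Mndal. DESeq2 size factors shifted the week 2 median of all genes from 0.09 to -0.12, and TMM the week 3 median from 0.02 to 0.13. The members at least 2-fold different between naïve and fresh cells, 5 in week 2 and 1 in week 3, were 9 and 3 with 0.1 CPM added and 8 and 3 at a 1.5-fold limit. Of 80 recomputed week-averaged ratios of single members, 7 moved beyond their SD and 0 changed sign.

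edgeR called 0 genes, also 0 with a replicate block for the week, with all genes, with all 5 libraries in 1 fit and inside the gate. DESeq2 called 1054. Leaving out 1 library gave 0 to 1646 calls. The highest, 1646, came with the week 2 ta-non-activated library left out, against 513 with the week 3 one left out and 0 with either ta-activated library left out. The remaining single library is then assumed to vary like the other group. The summed members were higher with 3 or more than with 0 score genes in 5 of 5 libraries, but the log2 ratio of 0.68 in ta-activated cells of week 3, which rests on 12 cells with 0 score genes, was -0.0278 without thinning. Depth limits Ifi204, Ifi207, Ifi211 and Ifi214 most, with 0 to 23 UMIs in each ta-non-activated library.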
